A study of Mus musculus with 161 samples.

Results

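Classical monocytes are short-lived phagocytes that leave the bone marrow, circulate in blood and enter tissues, where they can become macrophages or antigen-presenting cells. In the mouse they carry high surface Ly6C, and in blood a part of them converts to Ly6C-low monocytes, which patrol the vessel wall. Single-cell profiles of such a population show which transcripts every cell holds and which lie in a fraction of cells only.

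The blood cells described here were the 38 libraries that the labels call blood Ly6C-high monocytes, of 161 libraries in a mouse series that also holds 57 bone marrow monocytes and 66 common monocyte progenitors. They were untreated primary cells of C57BL/6 mice, sorted as CD115+ CD11b+ cells with high Ly6C. Bone marrow monocytes, used below for comparison, were untreated C57BL/6 cells sorted as lineage-negative, CD117-negative, CD115+, CD135-negative and Ly6C+. Each library came from 1 capture site of a Fluidigm C1 chip, a microfluidic device that makes cDNA from polyadenylated RNA of single cells. No label names an animal, so the blood cells count as 1 sample, cells are not replicates, and no test between populations was possible. SDs below are over cells, and intervals cover the counting of cells only. Cells are numbered 1 to 38 in deposition order, and the number is only a name.

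The values are TPM, a transcript share in which each cell sums to a fixed total and genes are scaled by length, so levels can be compared between genes. Read depth per cell is unknown. A gene is called on in a cell above 1 TPM. Genes above 1 TPM per cell ran from 2871 to 6630 with a median of 4319.5 in blood, and from 3031 to 5938 with a median of 4719 in bone marrow monocytes. The blood and bone marrow monocyte libraries came from 1 sequencing lane with mixed library numbers, and the labels do not name the chip.

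1 library stood apart. Blood cell 29 held 6630 genes above 1 TPM, against 2871 to 5212 in the other 37 cells. Lyz2, the lysozyme of macrophages and monocytes, stood at 377 TPM there and at 25841 to 92363 TPM in the others. Actb, encoding beta-actin, stood at 67.3 TPM against 9132 to 46999 TPM. Ribosomal protein rows made up 0.966% of its TPM against 4.20 to 10.4%, and Gm10800, a predicted gene, reached 96254 TPM against at most 1866 TPM. Its mean correlation with the other cells was 0.321, against 0.476 to 0.541 for theirs. Many of the values that rest on it are therefore given for all 38 cells and for the 37 without it.

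The markers of the sorted cells were present, though Csf1r, Itgam, Apoe and Ly6c2 were low or missing in part of the cells. Lyz2 lay above 100 TPM in 38 of 38 cells. Ccl6, a chemokine of myeloid cells, lay above 10 TPM in 38 of 38 and above 100 TPM in 36. Csf1r, which encodes the sorting antigen CD115, was above 1 TPM in 36 cells and above 100 TPM in 26 (68.4%, exact 95% interval 51.3 to 82.5%). Itgam, which encodes CD11b, was above 1 TPM in 31 cells and above 100 TPM in 17. Apoe, a lipid-carrying apolipoprotein, was above 100 TPM in 30 cells. Transcripts of both antigens were thus missing at 1 TPM from a few cells that were sorted by the protein.

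Ly6c2, which encodes the Ly6C antigen of the gate, split the cells. It lay on chromosome 15 of GRCm38 from 75108158 to 75111970, on the minus strand, as a protein-coding gene. Its values ran from 6.48 to 13110 TPM with a median of 2496 TPM, and no cell had a value between 62.6 and 817 TPM. Below that gap lay 9 cells (21, 18, 4, 9, 31, 12, 29, 20 and 6, in order of Ly6c2), and 29 cells lay above 100 TPM (76.3%, exact 95% interval 59.8 to 88.6%). Among bone marrow monocytes 56 of 57 were above 100 TPM (98.2%, 90.6 to 99.96%). Ly6c1, a close copy of Ly6c2 that could take some of its reads, was at 0 in all 9 low cells and reached at most 41.9 TPM in any blood cell. The Ly6c2 transcript was thus low in 9 cells under a label of high Ly6C. Cell 29 is among them and was also low in Lyz2 and Actb, so its Ly6c2 cannot be read against the label. Correlations with Ly6c2 are given with and without these 9 cells.

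Markers that define other blood cell types were at 0 or low in many lists, while members that monocytes can share were present in part of the cells. Summed levels of the T cell list (14 genes), the NK cell list (12), the erythroid list (12), the platelet list (12) and the eosinophil list (8) stayed at or under 34.9 TPM in each blood cell. The basophil and mast cell list (9) summed to more than 100 TPM in 1 cell, where Hdc reached 563 TPM. Hdc was above 10 TPM in 2 cells, and the other 8 genes of that list were at 0 in every cell. Of the 14 B cell genes, Cd79a, Pax5, Igkc and Blk were at 0 in every cell, while Ighm, the immunoglobulin mu chain, exceeded 100 TPM in 9 cells and Cd79b in 3, and the list summed to 0 to 2114 TPM, above 100 TPM in 10 cells. In the neutrophil list Camp, Ltf, Ngp, Retnlg and Mmp9 were at 0 and Ly6g reached 67.5 TPM. Csf3r, the G-CSF receptor, exceeded 100 TPM in 12 cells, the collagenase gene Mmp8 in 5 with up to 1734 TPM, and Cxcr2 in 1, and the neutrophil list summed to more than 100 TPM in 19 of 38 cells (range 1.19 to 1991 TPM). The dendritic cell list summed to 0 to 1575 TPM, above 100 TPM in 8 cells, with Clec9a, Ccr7 and Cd207 at 0, Flt3 at most 77.1 TPM and Cd209a above 100 TPM in 2 cells. The plasmacytoid dendritic cell list exceeded 100 TPM in 12 cells, through Bst2 in 8, Tcf4 in 5 and Runx2 in 2. The macrophage list summed to 0 to 733 TPM, with Timd4, Cd5l, Marco, Vcam1 and Folr2 at 0, Spic above 10 TPM in 13 cells with up to 346 TPM, and Axl up to 714 TPM and Mertk up to 231 TPM. Doublets were not called, since each value comes from a chip site and no cell images were used here.

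The most abundant transcripts were those of lysozyme, actin and iron storage. Lyz2 had a mean of 52667 TPM, 5.27% of all transcripts, and a median of 53611 TPM. Actb followed with a mean of 21114 TPM, then the nuclear noncoding RNA Malat1 with 11013 TPM and Ftl1, the ferritin light chain, with 7985 TPM. Fth1, the ferritin heavy chain, had 4764 TPM. Tmsb4x, encoding the actin-sequestering thymosin beta 4, had 6862 TPM, and Actg1, gamma-actin, 4624 TPM. The 25 highest rows together held 21% of the TPM, and 277 rows held 50% of it. No other named gene came near Lyz2, whose mean was more than double that of Actb.

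Genes of the immune surface and of interferon-linked membrane proteins made up much of the rest of the top 25. Tyrobp and Fcer1g, the signalling adaptors of Fc receptors and related receptors, had means of 5113 and 3363 TPM. B2m, the light chain of MHC class I, had 5565 TPM and its partner H2-D1 3780 TPM. Ifitm3 and Ly6e, membrane proteins that restrict viruses, had 5812 and 4904 TPM. Plac8, a marker of classical monocytes, had 4717 TPM, Ccl6 3003 TPM, and Ctss, the lysosomal protease cathepsin S, 4204 TPM. Gpx1, a glutathione peroxidase, stood at 5664 TPM. Without cell 29 the lowest value was 1612 TPM for Ifitm3, 1598 TPM for B2m and 573 TPM for Plac8, against 8.80, 59.8 and 19.4 TPM with it.

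Other genes reached the top 25 through a part of the cells. H2-Aa, the alpha chain of the MHC class II molecule I-A, had a mean of 3129 TPM and a median of 5.13 TPM. Cd74, the invariant chain that escorts MHC class II through the cell, had a mean of 4481 TPM and a median of 362 TPM. Sat1, the rate-limiting enzyme of polyamine breakdown, ran from 29.8 to 58582 TPM with a median of 4642 TPM. Ranked by median TPM, 22 of the 25 genes kept their place among the top 25.

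**Figure D1:**
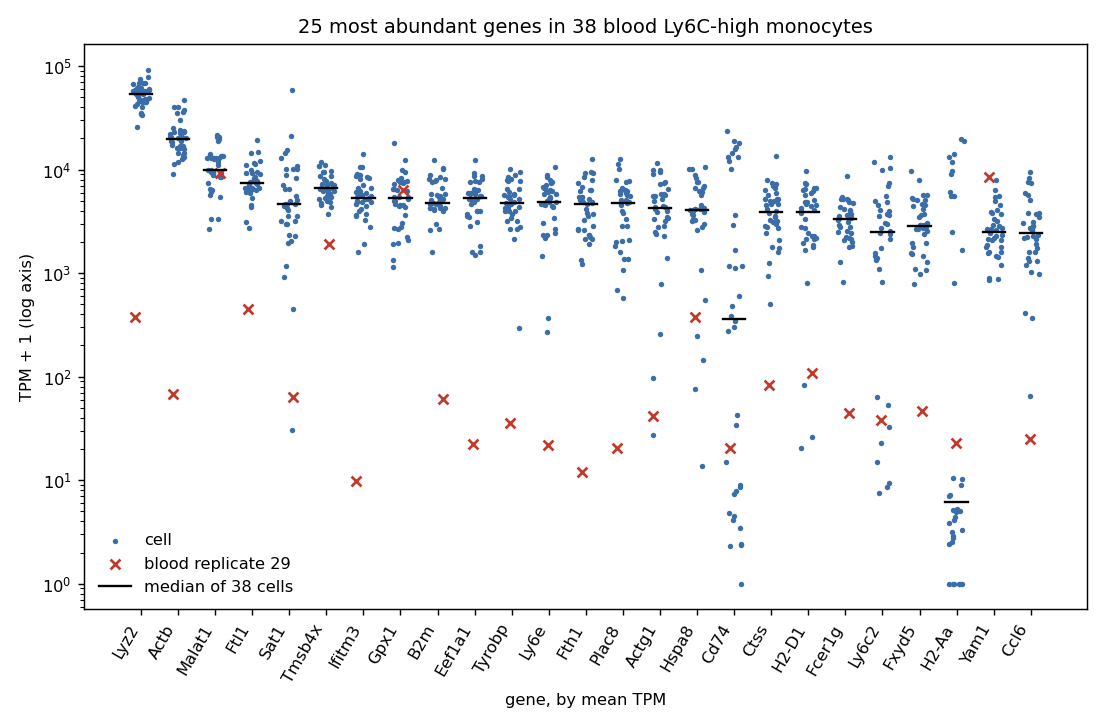
TPM + 1 of the 25 genes with the highest mean TPM in each of the 38 blood cells, on a log axis, with the median as a bar and blood cell 29 as a cross. Lyz2 sits between 25841 and 92363 TPM in all cells but cell 29, while H2-Aa spreads from 0 to 19550 TPM and Cd74 from 0 to 23644 TPM.

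Few genes were on in every cell. Of 17456 rows above 1 TPM in at least 1 blood cell, 211 (1.21%) were above 1 TPM in all 38, 989 in more than 75% but not all, 4807 in 25 to 75%, and 11449 in under 25%. A single cell held 3740 of them. Without cell 29 the number on in all cells was 253. At stricter limits 91 genes exceeded 10 TPM and 18 exceeded 100 TPM in all 38 cells. Because capture loses transcripts, a gene at 0 in a cell can still have been present there.

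**Figure D2:**
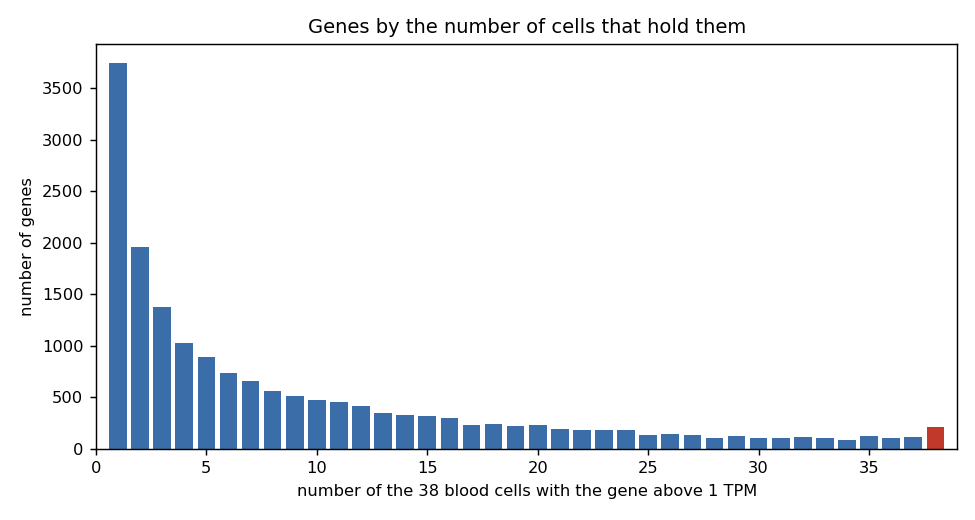
Number of genes (vertical axis) by the number of the 38 blood cells in which they exceed 1 TPM (horizontal axis), with the 211 genes on in all cells in red. The largest class is that of the 3740 genes found in 1 cell.

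Genes of the cell's machinery for movement, phagocytosis and antigen display supplied many of the 211. The actin cytoskeleton list had 14 of its 30 members on in all cells, among them Actb, Tmsb4x, Vim, Coro1a, Pfn1 and the Arp2/3 subunits Actr2, Actr3 and Arpc5. The lysosome list had 8 of 27, with the cathepsins Ctss, Ctsc and Ctsb, the cathepsin inhibitor Cst3, and Lamp2, Lgmn, Grn and Psap. The classical monocyte list had 8 of 33, which were Lyz2, Ifitm3, Plac8, Ly6c2, Ccl6, Ms4a6c, Ccr2 and Fn1. From the Fc receptor and lectin list 4 of 30 were on throughout, Tyrobp, Fcer1g, Fcgr3 and Pirb, and from the MHC class I list 4 of 15, B2m, H2-D1, H2-K1 and Pdia3. The background is 211 of 17456 rows, and no test sets the lists against it.

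Regulators were among the genes on in every cell. Of 30 myeloid transcription factors, Klf13, Klf6, Irf5 and Zeb2 were above 1 TPM in all cells, at median levels of 580, 311, 322 and 123 TPM. Spi1, which encodes the myeloid master factor PU.1, was above 1 TPM in 29 cells, Irf8 in 22, and Cebpb, a factor tied to Ly6C-low monocytes, in 35. Fos, Dusp1 and Klf6 of the immediate early list (29 genes), the first genes switched on by stimulation or handling, were on in all cells, and Fos had a median of 1421 TPM. Of 53 nuclear genes of oxidative phosphorylation, Cox4i1 and Cox8a were on in all cells, and 28 lay in 25 to 75% of cells. Of all detected rows, 1.21% were on in all cells and 27.5% lay in 25 to 75%.

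Which transcripts were most even between cells depended on cell 29. Among genes on in all 38 cells with a mean of at least 100 TPM, Zfp260, a zinc finger gene, had the lowest SD of log2(TPM + 1), 0.49, with values from 364 to 1767 TPM. Tmsb4x followed with an SD of 0.50, then Calb1, a calcium-binding protein best known from neurons, with 0.65, Malat1 with 0.72, Ubb, a ubiquitin gene, with 0.73, and Prr15 with 0.80. Yam1, a noncoding RNA, Ftl1, Gpx1 and the leukocyte surface peptide gene Cd52 completed the 10, with SDs of 0.83 to 0.93. Over the 37 other cells Lyz2 was the most even with an SD of 0.37, against 1.21 with cell 29. Tmsb4x (0.42), Calb1 (0.47), Zfp260 (0.48) and Actb (0.56) came next, and 5 of the 10 genes were shared by both rankings. Ftl1 had an SD of 0.87 with cell 29 and 0.57 without it. Calb1 and Prr15 had their highest values, 4102 and 1316 TPM, in cell 29, and Yam1 also peaked there at 8580 TPM. In bone marrow monocytes Zfp260, Calb1 and Prr15 were above 1 TPM in 57 of 57 cells with SDs of 0.38, 0.38 and 0.41. The median SD over 6007 genes on in at least 25% of blood cells was 2.56.

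Most genes on in a fraction of cells were low where they were on. Over the 4807 genes the median level among the cells that held a gene had a median of 13 TPM, and it exceeded 100 TPM for 481 of them. The genes named next were chosen as those with the highest such level. Rab11a, a small GTPase of recycling endosomes, was above 1 TPM in 22 cells with a median of 614 TPM among them. Blvrb, a biliverdin reductase, was on in 15 cells at a median of 607 TPM. Ccl2, the main chemokine ligand of Ccr2, was on in 25 cells at a median of 556 TPM and reached 5488 TPM. Aif1, an actin-bundling protein of macrophages, was on in 18 cells at 521 TPM, and Il2rg, the common cytokine receptor gamma chain, in 23 cells at 494 TPM. Cd48, a leukocyte adhesion molecule, was on in 28 cells at 489 TPM. Treml4, a receptor enriched in Ly6C-low monocytes, was on in 17 cells at 431 TPM. Each of these genes was at 0 in at least 1 cell.

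Most inflammatory mediators, like most genes, were missing from a part of the cells. Of 34 genes of the NF-kB and inflammatory list, 0 were on in all cells, 19 in 25 to 75% and 11 in under 25%. Of all detected rows, 1.21%, 27.5% and 65.6% lay in these classes. Nfkbia, Plaur, Nfkbiz and Casp4 were on in 35, 34, 32 and 29 cells. Il1b, the cytokine interleukin-1 beta, was above 100 TPM in 10 cells and reached 2514 TPM, with a median of 0 TPM. Cxcl2, a neutrophil-attracting chemokine, exceeded 100 TPM in 14 cells and Tnf in 4. Nfkbia, the inhibitor of NF-kB that NF-kB itself induces, was above 100 TPM in 27 cells, and Plaur, the urokinase receptor, in 27. The list's median r between members was 0.0291, against 0.0146 over all pairs of 4567 genes that passed the same filter (on in at least 25% of cells, mean at least 10 TPM). Within it Nfkbia and Plaur had an r of 0.636 (0.61 without cell 29) and Cxcl2 and Nfkbiz 0.55 both ways.

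MHC class II genes showed the widest spread between cells. These molecules display peptides from engulfed material to CD4 T cells; H2-Aa and H2-Ab1 encode the chains of I-A, H2-Eb1 the beta chain of I-E, and H2-DMa and H2-DMb1 the chaperone that loads the peptide. H2-Aa had the largest SD of all named genes, 5.4, followed by H2-Eb1 with 4.89, Cd74 with 4.89 and, after Ccl2 with 4.78, H2-Ab1 with 4.66. The median SD of the 8 list members on in at least 25% of cells was 4.55. Without cell 29 it was 4.58.

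The MHC class II genes were high in the same cells. H2-Aa was above 100 TPM in 13 cells (34.2%, exact 95% interval 19.6 to 51.4%), where it ran from 795 to 19550 TPM, and it was at most 22 TPM in the other 25. H2-Ab1 and H2-Eb1 were each above 100 TPM in 12 cells, all 12 among those 13. The thirteenth, cell 26, held 2508 TPM of H2-Aa, 97.3 TPM of H2-Ab1 and 2.66 TPM of H2-Eb1. Cd74 exceeded 100 TPM in all 13 and in 9 further cells, in which it reached at most 1661 TPM against 1110 to 23644 TPM in the 13. H2-DMb1 exceeded 100 TPM in 10 of the 13 and in 6 of the 25. Ciita, the coactivator that switches MHC class II genes on, was above 1 TPM in 5 cells only.

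The correlation within this list was the highest of the 15 lists with enough members. Its median Pearson r over 28 pairs was 0.464 (0.455 without cell 29), against 0.0146 over all pairs. H2-Ab1 and H2-Eb1 had an r of 0.963, H2-Aa and H2-Ab1 0.952, H2-Aa and H2-Eb1 0.935, and H2-Aa and Cd74 0.831. Below these core genes, H2-Aa and H2-DMb1 had 0.645. By rank (Spearman), H2-Aa and H2-Ab1 had 0.76. Beyond the list, the genes that followed H2-Aa most closely were Tnpo1, a nuclear import receptor (0.651 over 38 and 0.651 over 37 cells), and Tmem176b, a membrane protein of myeloid antigen-presenting cells (0.646 and 0.649). S100a4, a calcium-binding protein of motile cells, ran against it (-0.442 and -0.485). Such partners were picked as extremes among 4567 genes. Over all pairs in 38 cells, the 1st and 99th percentiles of r were -0.36 and 0.414.

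The MHC class II level did not follow Ly6c2. The 13 cells spanned 21.8 to 13110 TPM of Ly6c2 and the other 25 spanned 6.48 to 11863 TPM, and r between H2-Aa and Ly6c2 was 0.0996 over 38 cells and 0.196 over the 29 cells above the gap. With the 9 low-Ly6c2 cells left out, H2-Aa and H2-Ab1 still had an r of 0.95 and the list a median of 0.475. The dendritic cell list summed to more than 100 TPM in 2 of the 13 cells and 6 of the other 25, and the B cell list in 6 and 4. The part of such RNA in the MHC class II values was not tested. In the 13 cells Flt3 reached at most 4.29 TPM, Cd209a exceeded 100 TPM in 1, Ighm in 5 and Cd79b in 2, and in the other 25 the counts were 1, 4 and 1 for the last 3 genes. Batf3 exceeded 100 TPM in 2 cells of each set, and Dpp4, Clec10a and Kmo in 0 of the 13. Lyz2 ran from 25841 to 66585 TPM in the 13 cells. Among bone marrow monocytes Ighm exceeded 100 TPM in 37 of 57 cells, and H2-Aa in 4.

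The promoters of H2-Aa and H2-Eb1 are shown because these genes were high in the same cells. MHC class II promoters are known for a Y box, an inverted CCAAT motif bound by NF-Y beside the sites through which CIITA is recruited. The 100 bases before the RefSeq start (GRCm38.p6, 5′ to 3′ on the gene's strand) read as follows, with CCAAT or its complement ATTGG in capitals, for H2-Aa at chr17:34287824-34287923 (minus strand) and H2-Eb1 at chr17:34305767-34305866 (plus strand).
H2-Aa: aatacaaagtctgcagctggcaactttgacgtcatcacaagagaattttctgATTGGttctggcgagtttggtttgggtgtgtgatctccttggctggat
H2-Eb1: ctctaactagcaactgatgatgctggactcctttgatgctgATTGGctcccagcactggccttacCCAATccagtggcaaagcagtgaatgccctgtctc
The motif began 48 bases before the start in H2-Aa, and 59 and 35 bases before it in H2-Eb1. Searching both strands, 7 of the 8 list members with a RefSeq promoter held it in these 100 bases, against 21.6% of all 27025 genes. In the whole window of 250 bases before to 50 after the start, 8 of 8 held it, against 41.1%. These 8 are H2-Aa, H2-Eb1, H2-Eb2, H2-DMa, H2-DMb1, H2-DMb2, H2-Oa and H2-Ob, of which H2-Eb2, H2-Oa and H2-Ob were too low for correlation and H2-DMb2 had a median r of -0.037 with the list. A match is a description of the sequence, not a bound site.

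**Figure D3:**
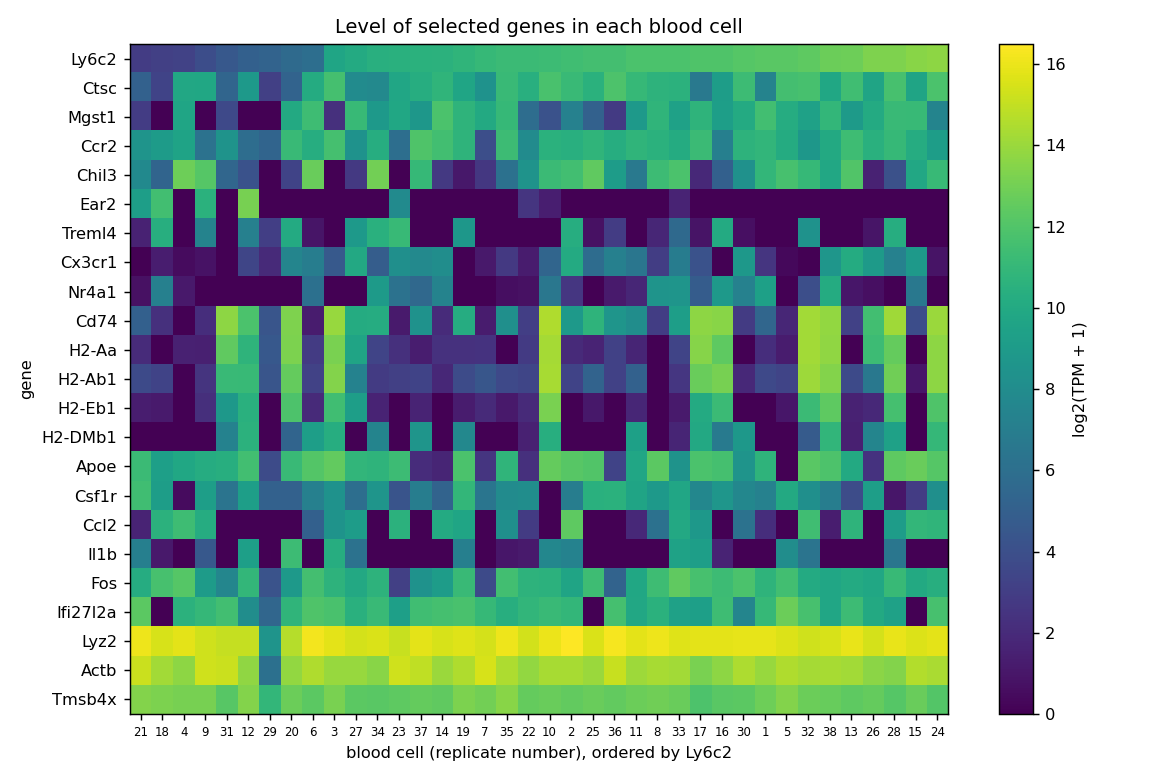
log2(TPM + 1) of selected genes (rows) in each of the 38 blood cells (columns, named by number and ordered by Ly6c2 from low to high), with the colour scale on the right. H2-Aa, H2-Ab1 and H2-Eb1 are bright in the same 12 columns, spread along the Ly6c2 order, and Ear2 is bright in 5, of which 4 are among the 9 columns on the left.

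Ear2, a ribonuclease of the eosinophil-associated family that is enriched in Ly6C-low monocytes, lay mostly where Ly6c2 was low. It was above 100 TPM in 5 cells, with 605, 2942, 1477, 9051 and 240 TPM in cells 21, 18, 9, 12 and 23, and at most 4.85 TPM in the other 33. The first 4 of these held 6.48, 7.68, 13.9 and 31.8 TPM of Ly6c2, and cell 23 held 1408 TPM. So 4 of the 9 cells with low Ly6c2 and 1 of the 29 others had Ear2 above 100 TPM. Cell 29, counted in the 9, held 0 TPM of Ear2. The r of Ear2 and Ly6c2 was -0.587 over 38 cells, -0.623 without cell 29 and -0.252 over the 29 cells above the gap. Ear1, Ear6 and Ear10, close relatives that could share reads with Ear2, reached at most 29.9 TPM. In bone marrow monocytes Ear2 exceeded 100 TPM in 11 of 57 cells, although 56 of the 57 had Ly6c2 above 100 TPM.

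The other Ly6C-low genes did not form a block. Treml4 exceeded 100 TPM in 12 cells, of which 4 had low Ly6c2, and its r with Ly6c2 was -0.173 (-0.206 over the 29 cells). Cx3cr1, the fractalkine receptor, exceeded 100 TPM in 15 cells, of which 13 lay above the Ly6c2 gap, with an r of 0.382 (0.0155 over the 29 cells). Nr4a1, the nuclear receptor that Ly6C-low monocytes depend on, exceeded 100 TPM in 9 cells. Gngt2, the list member with the highest mean (642 TPM), was above 1 TPM in 30 cells and above 100 TPM in 24. Apoc2 exceeded 100 TPM in 14 cells. Itgal, an integrin chain of LFA-1, exceeded 100 TPM in 7 cells, Ace in 3, and Spn, which encodes CD43, in 1. Over the 13 members of this list that passed the filter, the median r was 0.0519 (0.0568 without cell 29). Of the 26 members measured, 0 were on in all cells, where 1.21% of all detected rows lay.

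The strongest correlations of Ly6c2 were nearer 0 once the 9 low cells were left out. Its 6 highest correlations were with Ctsc, cathepsin C (0.637 over 38 and 0.611 over 37 cells), Hsp90b1, a chaperone of the endoplasmic reticulum (0.602 and 0.586), Mgst1, a glutathione transferase of classical monocytes (0.592 and 0.559), Ms4a6d (0.534 and 0.546), Crlf3 (0.526 and 0.626) and Ms4a6b (0.500 and 0.456). Among the 29 cells above 100 TPM of Ly6c2 the values were 0.19 for Ctsc, -0.051 for Hsp90b1, 0.27 for Mgst1, 0.42 for Ms4a6d, 0.36 for Crlf3 and 0.22 for Ms4a6b. Of its lowest correlations, Eps15 had -0.472 over 38 cells and -0.189 over the 29, and Ipmk -0.471 and 0.190. Leaving cells out by Ly6c2 itself narrows its range, and these partners were picked over all 38 cells. Either can bring r nearer 0, so the drop is no result about the partners. Mgst1 exceeded 100 TPM in 24 of the 29 cells and in 3 of the 9. Ccr2, the chemokine receptor by which monocytes leave the marrow, exceeded 100 TPM in 27 of the 29 and in 6 of the 9. Its r with Ly6c2 was 0.376 over all 38 and 0.106 over the 29. Cell 29, counted in the 9, held 38.1 TPM of Ccr2. The highest and lowest correlations of Ly6c2 were picked as extremes among 4567 genes. Over all pairs the 1st and 99th percentiles of r were -0.36 and 0.414.

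Co-variation of the classical monocyte genes rested largely on cell 29. The list's median r was 0.190 over 30 members and 0.092 without that cell. The r of Lyz2 and Ifitm3 was 0.881 with it and 0.061 without it, and that of Lyz2 and Plac8 0.72 and 0.02. Pairs that held without it were Mgst1 and Gda, a guanine deaminase (0.59), and Clec4a1, a C-type lectin, with Hp, haptoglobin (0.56). Chil3, the chitinase-like protein Ym1, had an SD of 4.36 and exceeded 100 TPM in 22 cells.

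The same cell carried much of the correlation in other abundant groups. The actin list had a median r of 0.152 over 29 members and 0.0362 without cell 29, the lysosome list 0.102 and 0.0561, and the oxidative phosphorylation list 0.088 and 0.0489. Actb and Cfl1, cofilin, had 0.806 with it and 0.319 without it. Actg1 and Capza2, a capping protein, had 0.63 and 0.58, and Ctss and Plbd1 0.56 and 0.53. The MHC class I list had a median of 0.0735 and 0.094, with H2-K1 and H2-D1 at 0.614 and 0.63.

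**Figure D4:**
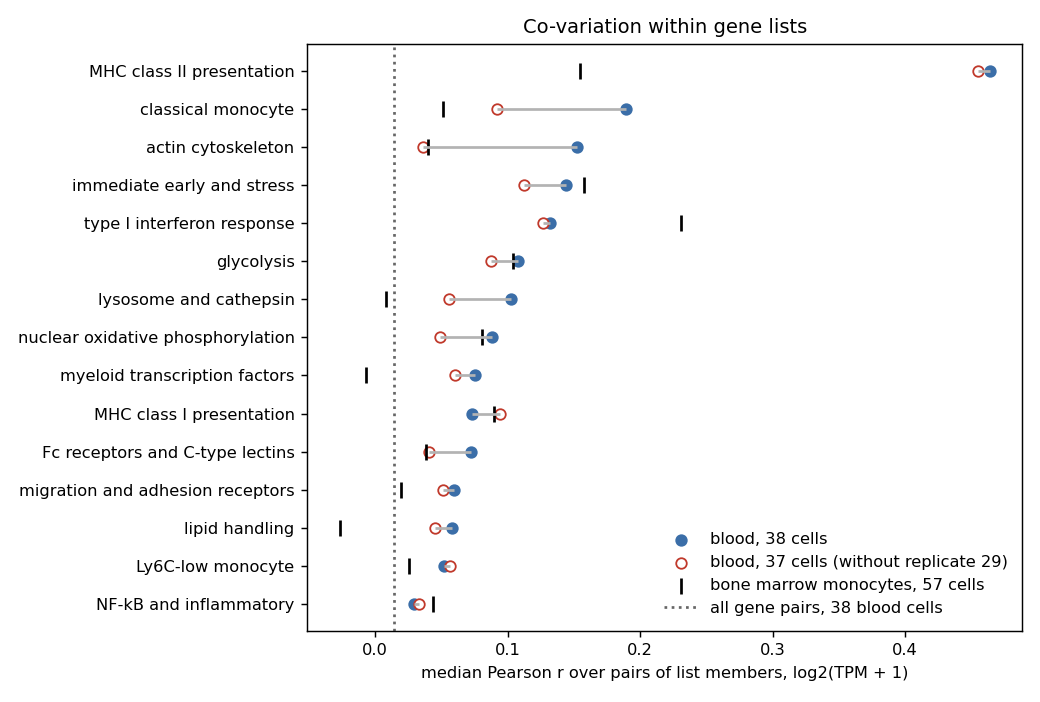
Median Pearson r over pairs of members (horizontal axis) of 15 gene lists in 38 blood cells (filled), 37 blood cells without cell 29 (open) and 57 bone marrow monocytes (bars), with the median over all gene pairs as a dotted line at 0.0146. MHC class II stands at 0.464 in blood and 0.154 in bone marrow, and the actin list moves from 0.152 to 0.0362 without cell 29.

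Interferon genes differed widely in the number of cells that held them. Type I interferon induces a set of antiviral genes through a promoter element with repeated GAAA. Ifi27l2a, one of them, was above 100 TPM in 34 cells and at 0 in 3, and Irf7, the factor that amplifies the response, exceeded 100 TPM in 20. Rtp4, a chaperone of receptors, exceeded it in 20, Oasl2, an oligoadenylate synthetase-like protein, in 11, and Isg15, a ubiquitin-like modifier, in 3. The median r over 27 members was 0.132 (0.127 without cell 29), and in bone marrow monocytes 0.231 over 28. Parp14 and Slfn5 had 0.51 both ways, Oas1a and Oas2 had 0.43, and Trim30a, a tripartite motif protein, and Phf11d 0.43. Ifitm3 and Ly6e had 0.763 with cell 29 and 0.29 without it.

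The searched motif, a pair of GAAA with any 2 bases between them, on either strand, is a simple form of that element and was in the 100 bases before the start of 8 of 28 interferon genes with a RefSeq promoter, against 1.14% of all genes. Trim30a is shown as the member on in 28 cells that holds it close to its start, at chr7:104465194-104465293 (minus strand, GRCm38.p6), with the motif in capitals, 36 bases before the start.
Trim30a: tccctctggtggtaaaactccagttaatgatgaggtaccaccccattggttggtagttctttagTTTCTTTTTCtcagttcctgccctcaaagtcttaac
In the window of 250 bases before to 50 after the start, 18 of the 28 genes held the motif, against 3.99% of all genes.

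Immediate early genes varied together to a small degree. Their median r was 0.144 over 18 members and 0.113 without cell 29. Dusp1, a phosphatase that shuts off MAP kinases, and Klf6 had 0.617 (0.51 without cell 29), and Atf3 and Zfp36, which destabilises inflammatory mRNAs, 0.52 and 0.48. Fos was most correlated with Ucp2, a mitochondrial carrier (0.701 and 0.636), Anxa2 (0.635 and 0.549) and Psap (0.613 and 0.545). Ccr2 and Fos had 0.551 over 38 cells and 0.472 over 37. In the 30 cells left after removing the 8 with the fewest or the most genes it was -0.0054, so the value over 38 cells rests on the cells removed. Ccr2 was most correlated with Npc2, a lysosomal cholesterol carrier (0.658 and 0.597). The partners of Fos and Ccr2 were picked as extremes among 4567 genes, and the 99th percentile of r over all pairs was 0.414.

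Apoe was all or little. It ran from 348 to 6865 TPM in 30 cells. It was at most 12.8 TPM in the other 8 (8.85 TPM without cell 29), with none between. Its closest genes were Ptma, prothymosin (0.601 and 0.571), Arpc2 (0.542 and 0.501) and Soat1, the enzyme that stores cholesterol as esters (0.517 and 0.484). Apoe and H2-Aa had an r of 0.296 (0.298 without cell 29), and 12 of the 13 cells with high H2-Aa had Apoe above 100 TPM, as did 18 of the other 25. Pltp, the phospholipid transfer protein, exceeded 100 TPM in 8 cells, all of which also had Apoe above 100 TPM. Il1b had its highest r with Arhgap25 (0.553 and 0.548) and Rnf130 (0.526 and 0.522), and its r with H2-Aa was 0.422 both ways. The closest genes of Apoe and Il1b were picked as extremes among 4567 genes, and the 99th percentile of r over all pairs was 0.414.

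Clustering gave mostly loose groups of genes. The 400 genes with the largest SD fell into 10 clusters by average linkage on 1 - r, 7 of them with at least 8 genes. The largest held 110 genes with a median r of 0.113 and was led by Cd74, H2-Eb1, Irf7 and Aif1. The next held 84 genes at 0.118, led by Tcn2, Txnip and Psmb1, and 63 and 50 genes of these 2 clusters came back together without cell 29. A cluster of 57 genes at 0.118 was led by Ccl2, Lamtor5 and Pfdn5, and 21 of its genes came back together. Clusters of 50 and 46 genes, at 0.125 and 0.119, had 15 and 17 genes come back together. The highest median r of the 7, 0.205, was in a cluster of 18 genes led by Pyhin1, Spcs1 and Tuba1a. Of these genes 16 came back together, as did 15 of a cluster of 21 genes at 0.147.

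Set beside bone marrow monocytes, the blood cells had a wider spread of MHC class II genes and a narrower spread of cell cycle genes. Over 11915 genes on in at least 10% of the cells of either population, the SD was higher in blood by 1 or more for 473 (3.97%) and lower for 1013 (8.5%). Of 10 MHC class II genes 4 had an SD higher in blood by 1 or more. H2-Aa had a mean log2 level of 5.52 ± 5.4 (SD over 38 cells) in blood and 2.24 ± 2.78 (57 cells) in bone marrow, where 4 of 57 cells exceeded 100 TPM (7.02%, 1.95 to 17.004%). H2-Ab1 exceeded it in 4 bone marrow cells and H2-Eb1 in 2. The median r of the list was 0.154 in bone marrow. H2-Aa, H2-Ab1 and H2-Eb1 had medians of 2.45, 7.07 and 0 TPM there. With so few bone marrow cells high in these genes, SD and r are small by level alone. The wider spread and higher r in blood are therefore no result apart from the higher mean. With 1 sample a population these differences have no replicate check.

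**Figure D5:**
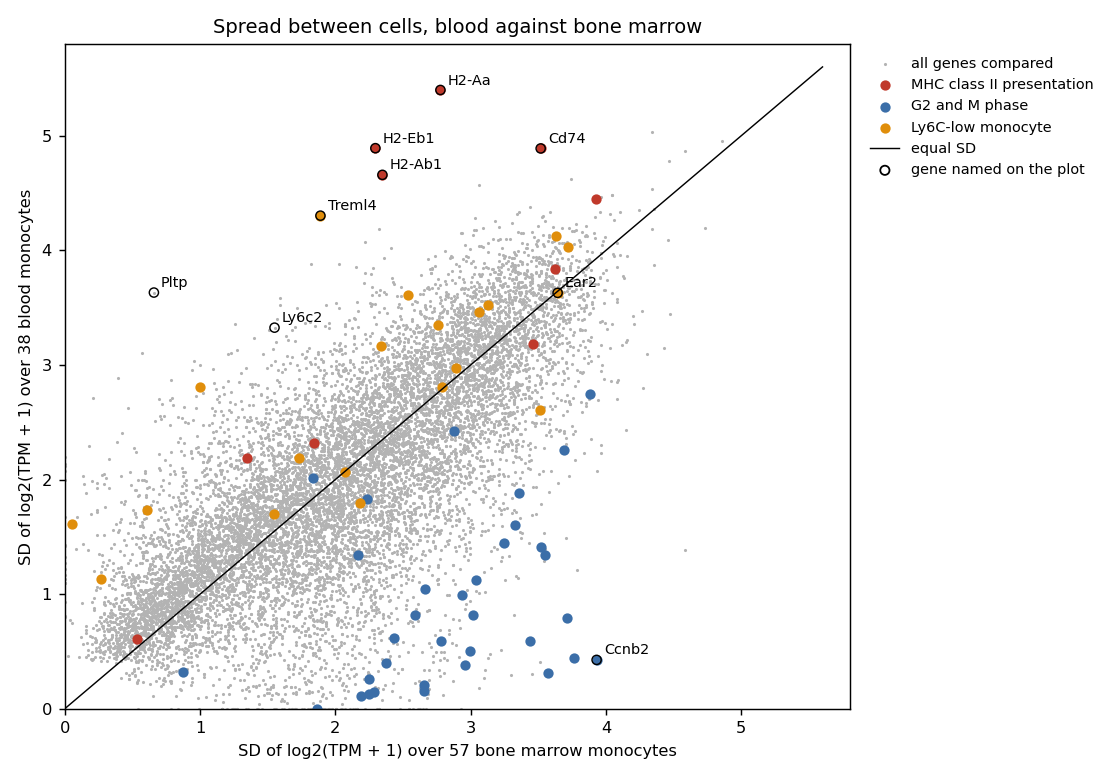
SD of log2(TPM + 1) over 38 blood cells (vertical axis) against that over 57 bone marrow monocytes (horizontal axis) for 11915 genes, with 3 gene lists in colour, named genes ringed and the line of equal SD. H2-Aa lies at 5.4 against 2.78 and Ccnb2 at 0.43 against 3.93.

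Cell cycle genes made up the other side. Of 34 genes of the G2 and M phase list 29 had an SD lower in blood by 1 or more, and of 28 S phase genes 19. Some passed the filter through bone marrow only, such as Bub1b, on in 1 blood and 17 bone marrow cells. A gene near 0 in most cells has a small SD by its level alone. The lower SD is therefore no result apart from the lower mean, found for 24 of the 34 and 14 of the 28 genes. Ccnb2, cyclin B2, was above 1 TPM in 5 blood cells with at most 2 TPM, and in 23 bone marrow cells with up to 1794 TPM. Cks1b, Bub1b and Mad2l1, which act in mitosis, and Stmn1, a microtubule regulator of dividing cells, had SDs of 0.44, 0.31, 0.41 and 1.38 in blood against 3.77, 3.57, 3.51 and 4.58. The median r of the G2 and M list was 0.592 over 21 genes in bone marrow, while in blood 1 gene, Hjurp, a histone chaperone of the centromere, passed the filter. Elane, the neutrophil elastase of primary granules, was at 0 in every blood cell and above 1 TPM in 11 bone marrow cells.

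Mean levels were also compared over all genes. Of the 11915 genes, 274 (2.3%) were higher in blood by 1 or more on the mean log2 scale and 1352 (11.3%) lower, with a median difference of -0.13. As log2 ratios of mean TPM the counts were 1900 and 2680, so the split depends on the scale. In blood 5 of 10 MHC class II genes were higher and 0 lower, 8 of 20 Ly6C-low genes higher and 1 lower, and 9 of 28 Fc receptor and lectin genes higher and 5 lower. Oxidative phosphorylation had 1 of 53 higher and 33 lower with a median difference of -1.15, glycolysis 0 of 15 and 7, and actin 2 of 29 and 10. Blood cells also held fewer genes, with the medians given above. Among cells with 3500 to 5500 genes (30 blood and 46 bone marrow) 476 genes were higher in blood, while the count lower in blood changed little.

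Single genes separated the populations by the share of cells that held them. Tubb6, a beta-tubulin, was above 1 TPM in 30 of 38 blood and 18 of 57 bone marrow cells, and Hfe, the haemochromatosis protein that regulates iron uptake, in 26 and 17. Treml4 exceeded 100 TPM in 12 of 38 blood (31.6%, 17.5 to 48.7%) and 2 of 57 bone marrow cells (3.51%, 0.428 to 12.1%). Pltp exceeded it in 8 of 38 and in 0 of 57, with an exact 95% upper bound of 6.27% and a floor of 3 cells, or 5.26%, in bone marrow. In the other direction H2afv, a histone variant, was above 1 TPM in 4 blood and 40 bone marrow cells, Plp2 in 10 and 46, and Slpi, a protease inhibitor, in 11 and 45.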

How the data were processed

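Single-cell mRNA was measured in 161 libraries of 1 table, of which 38 blood and 57 bone marrow monocytes were used. The authors deposited TPM values, made with RSEM 1.2.19 on GRCm38 per the submitters' processing notes; which aligner and annotation went with it is not stated in these sources. Per the labels' protocols, only cells with good cDNA went on to sequencing, and the preparation given for blood cells is worded for bone marrow. TPM keeps no depth, so precision per cell is unknown. Groups came from the labels. Values were analysed as log2(TPM + 1), with a pseudocount of 1, in Python 3.11.15 with pandas 2.3.3, numpy 2.4.6 and scipy 1.17.1. Correlations used genes above 1 TPM in at least 25% of cells with a mean of at least 10 TPM. Their computation was checked on simulated data with planted values. That check does not show how reliable a correlation over 38 cells is. Shares carry exact Clopper-Pearson 95% intervals. Correlations are descriptions over cells that share a library preparation, with no p-value. Doublets were not called.

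The cells, the 29 gene lists (599 different genes) and the rules were chosen with earlier results of these data known. Named genes were the markers, the 25 highest means, the 10 lowest SDs (mean at least 100 TPM, on in all cells), the 20 highest medians where on among genes in 25 to 75% of cells, the 20 largest SDs, the 6 highest and 4 lowest correlations of Ly6c2, Apoe, H2-Aa, Ccr2, Fos, Ifi27l2a and Il1b (70 values), up to 8 genes of a cluster, of each list up to 6 members by mean and 4 by SD, other-cell genes above 10 TPM, and the 8 largest differences from bone marrow in SD and in share of cells, in each direction. A few genes that these rules name are not reported here. Predicted, mitochondrial, ribosomal and small RNA rows were not named. Members of lists outside these limits, the Ly6c2 and Ear2 relatives, Gm10800 and the pairs of the lists were named after their values were seen. Gene positions are from GENCODE, and promoters from RefSeq. Alternatives changed the threshold, pseudocount, filters, cells, correlation measure and scaling.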

Additional observations from a re-analysis of the deposited data

How the results depend on the processing

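Leaving out blood cell 29, leaving out the 9 cells with Ly6c2 below 100 TPM, and the limit of 100 TPM were alternatives chosen after seeing the data. Raising the limit for a gene to be on changed the counts most: 126 genes were on in all cells above 5 TPM, 91 above 10 TPM and 18 above 100 TPM, and 3142, 2502 and 1009 were on in 25 to 75% of cells. Median SD of log2 over genes was 3.74 with a pseudocount of 0.1, 1.5 with 10 and 1.41 with no filter on the share of cells, and that of MHC class II genes 3.31 with a pseudocount of 10. Genes higher in blood than in bone marrow numbered 660 with a pseudocount of 0.1, 98 with 10, 1900 when compared by log2 ratio of mean TPM, and 476 when both populations were limited to cells holding 3500 to 5500 genes. Genes lower in blood numbered 2530, 409 and 2680 under the first 3 of these. With the limit of 3500 to 5500 genes that count changed too little to be listed. With the 9 cells of low Ly6c2 left out, the r of Ly6c2 with Hsp90b1 was -0.051 and with Ipmk 0.190, against 0.602 and -0.471 over 38 cells. The r of Ccr2 and Fos was -0.0054 without the cells with fewest and most genes, and Ifi27l2a and Fam118b had a rank correlation of 0.00062 against -0.570. A further 42 values of r moved beyond the spread of r for that gene without a change of sign, 26 of them by rank correlation, 10 without the cells with fewest and most genes and 6 without the cells of low Ly6c2. The cause was not tested. The ranking of the most even genes over 37 cells, the correlations over 29 cells and the levels of other-cell genes by H2-Aa were also added after seeing the data. The median r of MHC class II genes lay between 0.392 and 0.507 under its 12 alternatives. No paired analysis was possible because the cell numbers are names and no test was run between groups. The depth per cell is unknown, so a gene at 0 may be a transcript that was lost.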
